A study of Mus musculus with 11 samples.

Results

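Voltage-gated sodium, potassium and calcium channels and their relatives were followed in the trigeminal ganglion, which holds the touch and pain neurons of the head, in mice at embryonic day 13.5. Members were all probe sets whose single annotated gene symbol starts with Scn and a digit, Kcn or Cacn, without the epithelial Scnn genes. This gave 120 of 24899 probe sets, for 85 genes, of which 72 were on the array type U74Av2 and 48 on U74Bv2. There were 14 probe sets of 7 Scn genes, 80 of 60 Kcn genes and 26 of 18 Cacn genes. Of these, 90 probe sets (63 genes) stood for pore-forming subunits and 30 (22 genes) for auxiliary subunits. The prefix Kcn also takes in potassium channels that are not gated by voltage, namely the inward rectifiers (Kcnj), the two-pore domain channels (Kcnk) and the channels opened by calcium or sodium ions (Kcnm, Kcnn, Kcnt, Kcnu).

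The embryos were homozygous for a knockout of Brn3a, the POU-domain transcription factor encoded by Pou4f1, heterozygous for it, or wild-type. RNA of about 10 to 12 ganglia of 1 genotype was pooled for each array. U74Av2 was run with 2 knockout, 2 heterozygote and 2 wild-type arrays, and U74Bv2 with 2 knockout, 2 heterozygote and 1 wild-type array. Animals behind each pool are not named, and the p-values therefore reflect how far these pools differ, which may in part be technical. The sources used here give neither the strain nor the deleted part of the gene.

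Voltage-gated channels open when the membrane potential changes and let sodium, potassium or calcium ions pass. Sodium channels carry the upstroke of the action potential, potassium channels end it and set the firing rate, and calcium channels trigger transmitter release. A pore-forming subunit holds the ion path and the voltage sensor, while auxiliary subunits act on transport to the membrane, position and gating. Sensory neurons of the trigeminal and dorsal root ganglia are known for a set of sodium channels that few other neurons use, among them Scn9a and Scn10a.

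Signals are MAS5 intensities on a linear scale, scaled alike in all arrays, and log2 differences were taken after adding to each signal a pseudocount of 0.1 of the trimmed mean (49.8 on U74Bv2 and about the same on U74Av2), which makes the change of dim probe sets look smaller. A probe set was called at an adjusted p under 0.05 in a limma fit across all tested probe sets. Dim probe sets, judged by the mean log2 signal over all arrays, were left out of the fit. This kept 31 of the 72 members on U74Av2 and 26 of the 48 on U74Bv2. A probe set bright in knockouts alone could be left out this way. Signals of different probe sets were not compared as amounts of RNA. The signal of Pou4f1 on U74Bv2 was 549.8 and 904 in knockouts, 2196 and 3570.1 in heterozygotes, and 3313 in wild-type. It was lowest in the arrays labelled knockout, while the heterozygotes lay on both sides of the wild-type array. In bulk tissue, fewer cells of a type and less RNA per cell cannot be told apart. The summed signal of 16 neuron markers on U74Av2 was 102128 and 95801 in knockouts, 120675 and 98944 in heterozygotes, and 90032 and 93362 in wild-type. This sum is carried by a few bright markers such as Tubb3, and single markers went both ways. Of 15 tested neuron markers on U74Av2, 6 were below wild-type and 9 above (median 0.06), none was called, and 2 fell once the array number was added as a block, Syt1 (-1.29 ± 0.44 SE, adjusted p = 0.749, and 0.0332 with the block) and Prph (-0.87 ± 0.29, adjusted p = 0.744, and 0.0363 with the block). On U74Bv2 the sum of 7 neuron markers was 61851 and 53246 in knockouts, 60384 and 56525 in heterozygotes, and 61368 in wild-type. Of 6 tested neuron markers there, 5 were below wild-type and 1 above (median -0.14), and none was called. Syt1 differed by -1.28 ± 0.26 from wild-type (adjusted p = 0.0637) and Map2 by 0.77 ± 0.22 (adjusted p = 0.210). On U74Av2 Map2 differed by 0.85 ± 0.25 (adjusted p = 0.613). The 11 Schwann and satellite glia markers on U74Av2 summed to 23882 and 20744 in knockouts, 20738 and 18782 in heterozygotes, and 16874 and 17993 in wild-type. Fabp7 supplied most of that sum, 3 of the 8 tested glia markers were below wild-type and 5 above, and none was called (median 0.20). Connective tissue markers (9 genes) summed to 12390 and 11197 in knockouts, 9376 and 10010.1 in heterozygotes, and 9785 and 8620 in wild-type. Red blood cell markers (5 genes) summed to 52896 and 43396 in knockouts, 57946 and 39575 in heterozygotes, and 36920.3 and 32646 in wild-type. These 3 sums, and the neuron sum on U74Av2, were higher in both knockout arrays than in both wild-type arrays. For neuron and red blood cell markers, heterozygote array 1 had the highest sum of all U74Av2 arrays. The part of any of these markers in the channel results was not tested.

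Among the tested members, the channels called in knockout by the main fit were all lower there. Cacng2, left out by the filter, had higher signals in knockouts and is given below. Against wild-type, Kcna1 fell on both array types, and Scn7a and Cacna2d2 fell on U74Bv2. On U74Av2 this was 1 of 31 tested members, where 0.255% of all 7453 tested probe sets were called and 0.148% were called lower. On U74Bv2 it was 3 of 26 members, where 1.40% of all 7446 were called and 0.927% were called lower. Against heterozygotes, no member was called on U74Av2 (0.188% of all, 0.107% lower) and 4 were on U74Bv2 (1.71% of all, 1.20% lower), Scn7a, Kcna1, Cacna2d2 and Cacna2d1. At an unadjusted p under 0.05 against heterozygotes stood 10 of 31 members on U74Av2 (5.25% of all), with Kcna1 at an adjusted p of 0.0509, and 7 of 26 on U74Bv2 (9.67% of all).

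On U74Av2 the differences between the arrays numbered 1 and 2 in the labels were in part alike across genotypes (correlations of 0.533 to 0.619). The main fit did not include this number. With that number as a block, 5 members fell against wild-type there, namely Kcna1, both Kcnab2 probe sets, Cacna2d1 and Kcnn1, where 1.74% of all probe sets were called and 1.17% were called lower. Against heterozygotes 6 members fell, namely Scn7a, Kcna1, both Kcnab2 probe sets, Kcnn1 and Cacna2d3, where 1.73% of all were called and 1.05% were called lower.

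**Figure D1:**
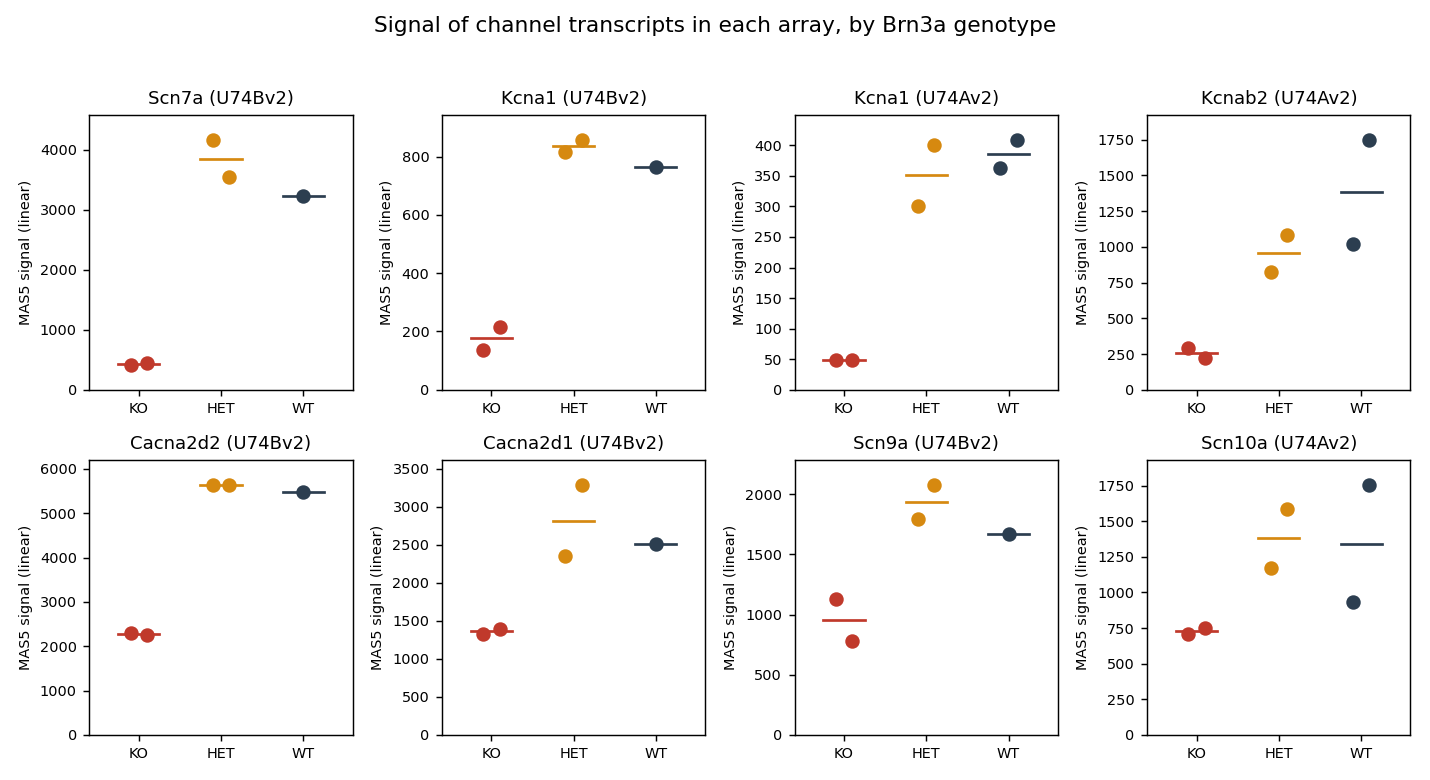
Signal (linear scale, vertical axis from 0) of 8 channel probe sets in each array of knockout (KO), heterozygote (HET) and wild-type (WT) ganglia. Points are arrays and bars are group means. Both KO points lie below all HET and WT points in every panel, for example 413 and 439 for Scn7a, against 3230.4 in WT.

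For Scn7a and Cacna2d2, called in knockout, for Kcnab2, called with the block, and for Scn9a, the chromosomal neighbour of Scn7a, the 300 bases around the annotated start are shown (250 before to 50 after it, assembly GRCm38.p6, gene strand, written 5′ to 3′). They lie at chr2:66784861-66785160 (Scn7a, minus strand), chr2:66634913-66635212 (Scn9a, minus strand), chr4:152477500-152477799 (Kcnab2, minus strand) and chr9:107399630-107399929 (Cacna2d2, plus strand). Capitals mark ATGCAAA on either strand, part of the octamer that POU-domain proteins are known to bind.
Scn7a: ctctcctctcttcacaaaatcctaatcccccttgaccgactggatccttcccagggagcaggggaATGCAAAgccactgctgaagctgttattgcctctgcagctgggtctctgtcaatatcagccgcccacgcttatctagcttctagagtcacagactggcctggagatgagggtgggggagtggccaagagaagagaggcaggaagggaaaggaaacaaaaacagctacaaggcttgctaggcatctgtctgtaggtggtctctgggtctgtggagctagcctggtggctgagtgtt
Scn9a: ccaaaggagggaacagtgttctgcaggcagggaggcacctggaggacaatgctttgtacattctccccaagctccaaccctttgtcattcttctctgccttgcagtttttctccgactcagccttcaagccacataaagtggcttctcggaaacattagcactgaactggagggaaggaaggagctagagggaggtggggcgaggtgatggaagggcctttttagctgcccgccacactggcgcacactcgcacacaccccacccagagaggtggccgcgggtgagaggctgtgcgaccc
Kcnab2: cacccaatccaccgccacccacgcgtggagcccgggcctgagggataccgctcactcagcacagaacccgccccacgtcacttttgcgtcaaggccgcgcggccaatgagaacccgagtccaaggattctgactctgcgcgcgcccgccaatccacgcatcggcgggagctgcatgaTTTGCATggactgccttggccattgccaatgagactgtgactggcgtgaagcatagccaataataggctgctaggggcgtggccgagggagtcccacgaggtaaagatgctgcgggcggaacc
Cacna2d2: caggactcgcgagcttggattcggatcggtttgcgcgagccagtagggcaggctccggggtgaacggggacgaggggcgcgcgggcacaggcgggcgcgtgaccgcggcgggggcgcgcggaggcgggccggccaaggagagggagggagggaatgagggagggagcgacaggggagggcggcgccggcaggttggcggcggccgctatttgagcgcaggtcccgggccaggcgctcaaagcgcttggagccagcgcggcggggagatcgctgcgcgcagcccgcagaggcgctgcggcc

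ATGCAAA (reverse complement TTTGCAT) was present in the windows of Scn7a, Kcnab2 and Cacng5, which were 3 of 91 windows of 65 matched channel genes, against 4.63% of all 32851 windows. The palindrome ATTAAT, found within sites described for Brn3 factors, was present in 4 member windows (Cacnb2, Kcng4, Kcnh2 and Kcnip1), against 4.75% of all windows. TATAAA (reverse complement TTTATA) was present in 5 member windows, against 13.6% of all. The median share of G and C was 59.7% in the member windows and 52.7% in all windows. GC content was 54.0% for Scn7a, 57.3% for Scn9a, 62.7% for this Kcnab2 window and 75.7% for Cacna2d2. Kcnab2 has 3 annotated starts, and ATGCAAA was found at 1 of them, which is the window shown. No window was available for Kcna1. The window of Cacna2d1, not shown, held no ATGCAAA. A match is a description of these letters and not a binding site.

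Among the pore-forming sodium channels, Scn7a stood out by its size of change. Scn7a (chromosome 2, 66673426 to 66784910, GRCm38.p6) encodes an atypical sodium channel that responds to the sodium concentration rather than to voltage and is known from sensory neurons and glia. On U74Bv2 its signal was 413 and 439 in knockouts, 4162 and 3535 in heterozygotes, and 3230.4 in wild-type. The knockout arrays were far below every other array. The transcript fell 6.89-fold against wild-type (log2 difference -2.78 ± 0.20 SE, adjusted p = 8.39e-04) and 8.16-fold against heterozygotes (-3.03 ± 0.17, adjusted p = 8.73e-05). On U74Av2 a dimmer Scn7a probe set gave 25.2 and 72.1 in knockouts, 316 and 239.5 in heterozygotes, and 211 and 219.7 in wild-type. The groups again did not overlap, and the difference was -1.47 ± 0.33 (adjusted p = 0.273) against wild-type and -1.76 ± 0.33 (adjusted p = 0.150, and 0.0394 with the block) against heterozygotes.

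Scn9a and Scn10a, the sodium channels of pain-sensing neurons, had lower signals in both knockout arrays than in any other array, and neither was called against wild-type. Scn9a (chromosome 2, 66480080 to 66635114) lies next to Scn7a. On U74Bv2 its signal was 1129 and 778 in knockouts, 1798 and 2078 in heterozygotes, and 1671 in wild-type. The differences were -0.80 ± 0.25 SE against wild-type (adjusted p = 0.248) and -1.01 ± 0.20 against heterozygotes (adjusted p = 0.0509). On U74Av2 Scn9a had signals of 140 and 178 in knockouts, 426 and 412 in heterozygotes, and 260.4 and 566 in wild-type. Its difference there was -1.07 ± 0.35 against wild-type (adjusted p = 0.700), close in size to that on the other array type. Scn10a, on chromosome 9, was measured on U74Av2 alone, with 707 and 749 in knockouts, 1174 and 1585 in heterozygotes, and 932 and 1755 in wild-type. The difference from wild-type was -0.78 ± 0.32 (adjusted p = 0.962, and 0.122 with the block).

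Other sodium channels showed smaller differences. Scn3a, a channel of embryonic neurons whose gene lies in the same cluster on chromosome 2, had 837 and 1079 in knockouts, 815 and 985 in heterozygotes, and 757 in wild-type on U74Bv2. Knockouts and heterozygotes overlapped, all above the wild-type array, and the difference from wild-type was 0.31 ± 0.24 SE. Scn8a, the main sodium channel at nodes of Ranvier, had 283 and 355 in knockouts, 335 and 457 in heterozygotes, and 412 in wild-type (-0.33 ± 0.30). Both Scn1a probe sets on U74Av2 were too dim for the fit. The auxiliary subunit gene Scn4b, which speeds the re-opening of sodium channels, had 2 probe sets on U74Bv2. One gave 190.2 and 359.6 in knockouts, 309 and 298 in heterozygotes, and 204 in wild-type (0.30 ± 0.38). The other gave 134 and 285 in knockouts, 130.5 and 264 in heterozygotes, and 328 in wild-type (-0.61 ± 0.48). They disagreed in sign, and in each the knockouts and heterozygotes overlapped. The 3 tested sodium channel probe sets on U74Av2 had a median difference of -1.07, and the 6 on U74Bv2, with Scn4b, one of -0.47, against 0.02 for all tested probe sets on either array type.

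Among voltage-gated potassium channels the fall of Kcna1 was seen on both array types. Kcna1 (chromosome 6, 126636463 to 126645801) encodes a Shaker-type channel that opens near the resting potential and keeps axons from firing repeatedly. On U74Av2 its signal was 49.3 and 48.8 in knockouts, 301 and 400.4 in heterozygotes, and 363 and 409 in wild-type. Knockout signals were therefore at about the size of the pseudocount. The transcript fell 4.39-fold against wild-type (log2 difference -2.14 ± 0.26 SE, adjusted p = 0.0286). On U74Bv2 another probe set gave 137 and 215 in knockouts, 815 and 858 in heterozygotes, and 763 in wild-type. It fell 3.66-fold against wild-type (-1.87 ± 0.29, adjusted p = 0.0240, or 0.0964 when dim probe sets were kept) and 3.98-fold against heterozygotes (-1.99 ± 0.23, adjusted p = 0.00521). The U74Av2 call was lost when dim probe sets were kept (adjusted p = 0.101). It did not survive leaving out any 1 array either, with adjusted p between 0.0659 without heterozygote array 1 and 0.329 without wild-type array 2, while the difference stayed between -2.21 and -2.06.

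Kcna2, a close relative that joins Kcna1 in the same channels, was lower in both knockout arrays on U74Bv2, with 408 and 397 in knockouts, 595 and 740.4 in heterozygotes, and 889.5 in wild-type. Its difference from wild-type was -1.05 ± 0.24 SE (adjusted p = 0.102). A dimmer Kcna2 probe set on U74Av2 did not show this, with 161 and 158 in knockouts, 242 and 134 in heterozygotes, and 155 and 182 in wild-type (-0.06 ± 0.31). Kcna6, also of the Shaker family, had 118 and 162 in knockouts, 256 and 236 in heterozygotes, and 207 and 217 in wild-type (-0.48 ± 0.26). Its knockout arrays lay below all others without a call.

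The Shaker beta subunit Kcnab2, which binds the inner face of these channels and aids their transport to axons, had the largest difference of all members on U74Av2. Its first probe set gave 289 and 221 in knockouts, 827 and 1083 in heterozygotes, and 1019 and 1749.7 in wild-type. The difference from wild-type was -2.19 ± 0.31 SE (4.58-fold, adjusted p = 0.0699, and 0.00763 with the block), and that from heterozygotes -1.72 (adjusted p = 0.150, and 0.0208 with the block). A further Kcnab2 probe set, of a type that can match related transcripts, gave 135 and 237 in knockouts, 584 and 707 in heterozygotes, and 639 and 753 in wild-type. It differed by -1.69 ± 0.28 (3.23-fold, adjusted p = 0.123, and 0.00514 with the block). Both probe sets thus separated the knockout arrays from the rest. Kcnab1, a related beta subunit, had 89.2 and 164 in knockouts, 147 and 279 in heterozygotes, and 198 and 263 in wild-type, with overlap between knockouts and heterozygotes (-0.69 ± 0.36).

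Other voltage-gated potassium channels varied without a call. Kcnc4, a Shaw-type channel of fast-spiking neurons, had 123 and 184 in knockouts, 174 and 420.3 in heterozygotes, and 565 in wild-type on U74Bv2. The heterozygotes overlapped the knockouts, so its difference of -1.61 ± 0.46 SE (adjusted p = 0.194) rests on the single wild-type array. The same holds for Kcnf1, an electrically silent subunit, with 319 and 118 in knockouts, 196 and 118 in heterozygotes, and 502 in wild-type (-1.15 ± 0.49). Kcnh1, of the ether-à-go-go family, had 40.5 and 194 in knockouts, 184 and 283 in heterozygotes, and 215 and 305 in wild-type (-1.04 ± 0.49), so that its knockouts lay below wild-type but overlapped the heterozygotes. Kcnh2, of the same family and known from the repolarization of heart muscle, had 935 and 705 in knockouts, 808 and 794 in heterozygotes, and 928 and 797 in wild-type (-0.08 ± 0.23). Kcnq1, from a probe set of relaxed design, gave 953 and 679 in knockouts, 775 and 666 in heterozygotes, and 756 and 589 in wild-type (0.25 ± 0.25). For Kcnh2 and Kcnq1 the genotypes overlapped. Kcnd3, an A-type channel, varied mainly between arrays of one genotype, with 599.7 and 47.8 in knockouts, 409 and 247 in heterozygotes, and 299 and 84.8 in wild-type.

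Of the channels opened by calcium, Kcnn1, a small-conductance channel that brings on the afterhyperpolarization, had 230.1 and 412 in knockouts, 778 and 819 in heterozygotes, and 913 and 799 in wild-type. The groups did not overlap, and the difference from wild-type was -1.33 ± 0.28 SE (adjusted p = 0.244, and 0.0372 with the block). The large-conductance channel gene Kcnma1 had 341 and 397 in knockouts, 376 and 436 in heterozygotes, and 350.1 and 396 in wild-type (-0.02 ± 0.22). Inward rectifiers and two-pore domain channels, which hold the resting potential, showed no call. On U74Av2 the 4 tested inward rectifiers lay between -0.29 and 0.54, and the 4 two-pore channels between 0.02 and 0.31. On U74Bv2 the 3 two-pore channels lay between -0.52 and 0.42. Kcnk3 was the lowest of them, with 276 and 403 in knockouts, 452 and 534 in heterozygotes, and 501 in wild-type.

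Auxiliary potassium channel subunits other than the beta subunits differed less than Kcnab2. Kcne1l, of a family of small single-pass subunits, had the largest positive difference among the members tested on U74Av2. It had 1244 and 1160.3 in knockouts, 1019.6 and 717 in heterozygotes, and 773 and 566 in wild-type. Both knockout arrays were above all others, and the difference from wild-type was 0.81 ± 0.26 SE (adjusted p = 0.700). The calcium-binding partners of A-type channels were bright on U74Bv2. Kcnip1 gave 1012 and 1015 in knockouts, 1245 and 1402 in heterozygotes, and 1417 in wild-type (-0.46 ± 0.20, adjusted p = 0.432). Kcnip3 gave 1798 and 2109 in knockouts, 1699 and 1683 in heterozygotes, and 1955 in wild-type (-0.01 ± 0.20).

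**Figure D2:**
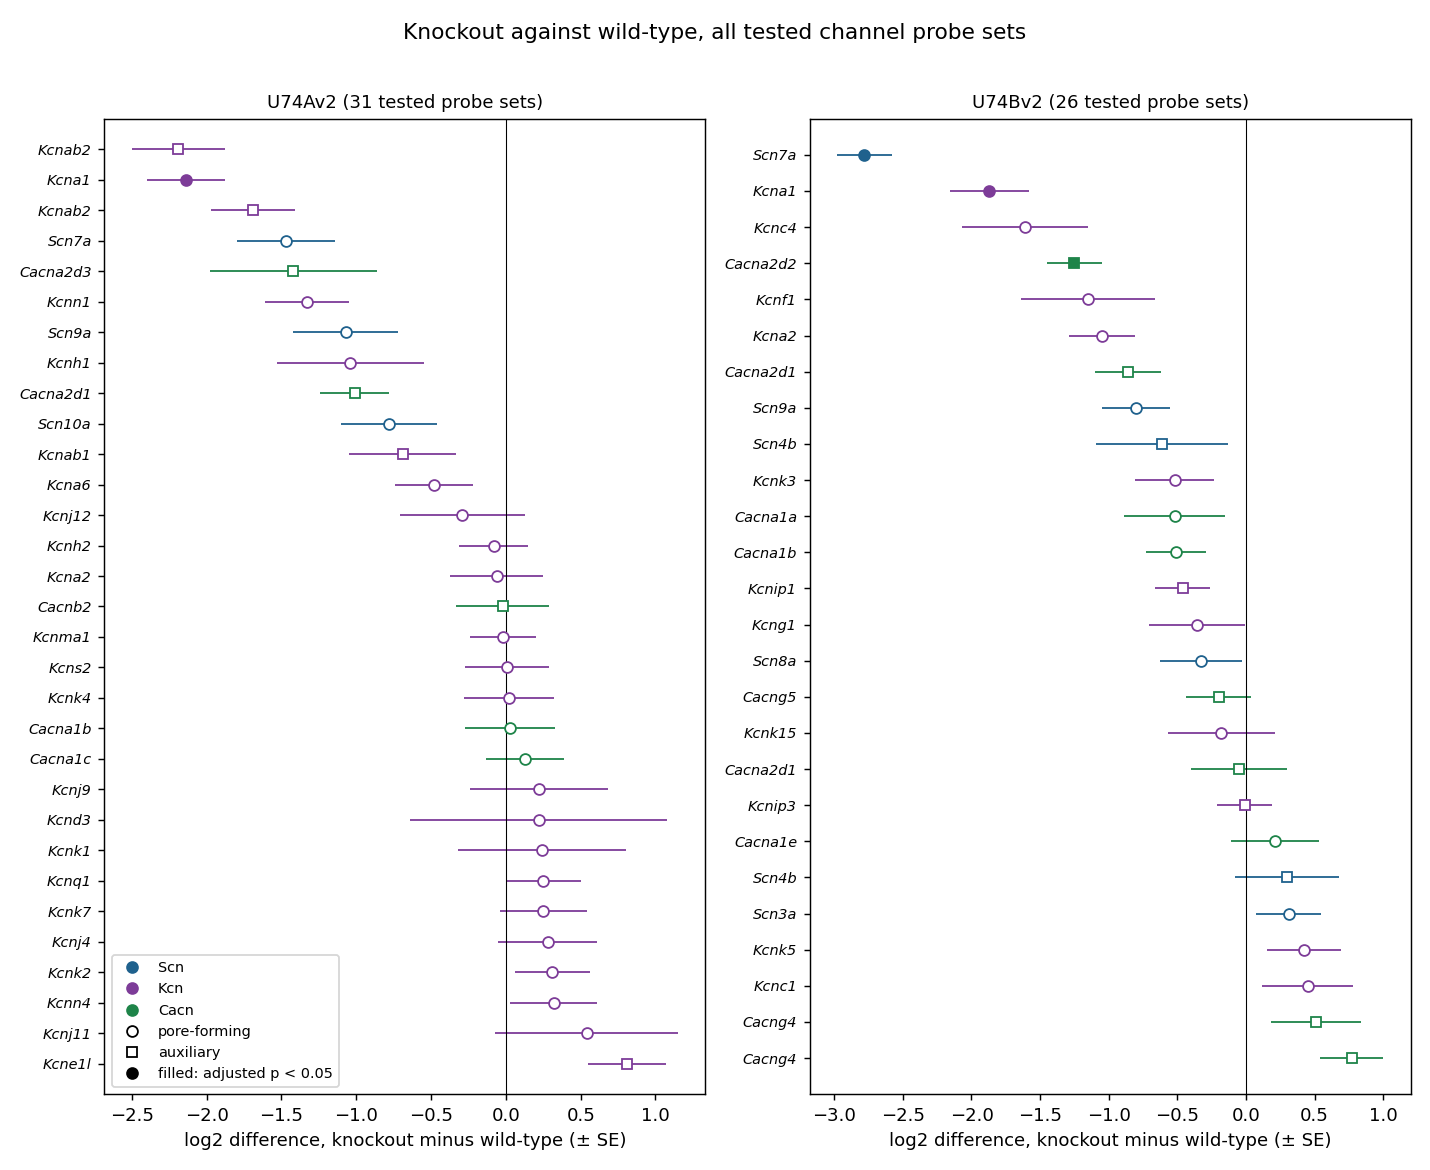
Log2 difference of knockout minus wild-type (horizontal axis, ± SE) for all tested channel probe sets on U74Av2 (left, 31) and U74Bv2 (right, 26), colour giving the prefix and shape the subunit class. Filled symbols passed an adjusted p under 0.05, which were Kcna1 on U74Av2 and Scn7a, Kcna1 and Cacna2d2 on U74Bv2.

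None of the pore-forming calcium channel genes was called. Cacna1b, the N-type channel of transmitter release, had the brightest pore-forming calcium channel probe set on U74Bv2, with 2609 and 3074 in knockouts, 3591 and 2934 in heterozygotes, and 4066 in wild-type (-0.51 ± 0.22 SE, adjusted p = 0.432). On U74Av2 it had 1134 and 635 in knockouts, 1042 and 854 in heterozygotes, and 876 and 795 in wild-type (0.03 ± 0.30). In both, knockouts and heterozygotes overlapped. Cacna1e, the R-type channel, had 1632 and 2065 in knockouts, 885 and 1578 in heterozygotes, and 1582 in wild-type (0.21 ± 0.32). Its knockout arrays were above all others, the lower of them by little. The difference from heterozygotes was 0.61 ± 0.26 (adjusted p = 0.486). Cacna1a, the P/Q-type channel, had 148 and 172 in knockouts, 167 and 241 in heterozygotes, and 249 in wild-type (-0.52 ± 0.37). Cacna1c, an L-type channel measured on U74Av2 by a probe set of relaxed design, had 414 and 619 in knockouts, 454 and 521 in heterozygotes, and 490.2 and 428 in wild-type (0.13 ± 0.26). Knockouts and heterozygotes overlapped in both.

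The alpha2delta subunits, which carry calcium channels to the membrane and to nerve terminals and include the targets of gabapentin, gave 2 calls in knockout, both lower, for Cacna2d2 and Cacna2d1. Cacna2d2 (chromosome 9, 107399733 to 107529346) had signals of 2291 and 2259 in knockouts, 5639.5 and 5637 in heterozygotes, and 5480.2 in wild-type on U74Bv2. Arrays of one genotype were almost equal. It fell 2.38-fold against wild-type (log2 difference -1.25 ± 0.20 SE, adjusted p = 0.0245, or 0.0974 when dim probe sets were kept) and 2.45-fold against heterozygotes (-1.29 ± 0.16, adjusted p = 0.00625). Cacna2d1 (chromosome 5, 15934264 to 16374511) had 1325 and 1398 in knockouts, 2351 and 3289 in heterozygotes, and 2509 in wild-type from its brighter U74Bv2 probe set. That probe set fell 2.01-fold against heterozygotes (adjusted p = 0.0400). Against wild-type its difference was -0.86 ± 0.24 (adjusted p = 0.174). The call against heterozygotes was lost without the filter (adjusted p = 0.119), without heterozygote array 2 (-0.77, adjusted p = 0.134) and without knockout array 2 (-1.04, adjusted p = 0.0505).

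On U74Av2 Cacna2d1 gave 182 and 157 in knockouts, 376 and 321 in heterozygotes, and 417 and 365 in wild-type, again with no overlap (-1.01 ± 0.23 SE against wild-type, adjusted p = 0.314, and 0.0417 with the block). A further, dimmer U74Bv2 probe set for Cacna2d1 overlapped between genotypes, with 179 and 294 in knockouts, 287 and 344 in heterozygotes, and 240.1 in wild-type. Cacna2d3, on chromosome 14, had 50.1 and 285 in knockouts, 479 and 654 in heterozygotes, and 333 and 578 in wild-type. Its knockout arrays differed widely from each other, and the difference was -1.42 ± 0.56 against wild-type (adjusted p = 0.912) and -1.74 against heterozygotes (adjusted p = 0.690, and 0.0431 with the block).

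The remaining auxiliary calcium channel genes did not follow this pattern. Cacnb2, a beta subunit that anchors to the pore from inside the cell, had 176 and 288 in knockouts, 179 and 269 in heterozygotes, and 214 and 247 in wild-type (-0.02 ± 0.31 SE). Of the gamma subunits, Cacng2, Cacng4 and Cacng5 are better known as partners of AMPA-type glutamate receptors in the brain. Cacng4 gave 5755 and 5145 in knockouts, 5186 and 4022 in heterozygotes, and 3177 in wild-type from its brighter probe set (0.77 ± 0.23 against wild-type, adjusted p = 0.234), with knockouts and heterozygotes overlapping. Cacng2 was left out by the filter on both array types, as its mean log2 signal over all arrays was low. Its signal on U74Bv2 was 310 and 388 in knockouts, 116 and 165 in heterozygotes, and 44.6 in wild-type. On U74Av2 it was 235 and 121 in knockouts, 39.3 and 34.9 in heterozygotes, and 35.2 and 39.0 in wild-type. Both knockout arrays were above all others on both array types. Without the filter the difference from wild-type was 2.07 on U74Bv2 (adjusted p = 0.152) and 1.34 on U74Av2 (adjusted p = 0.426).

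**Figure D3:**
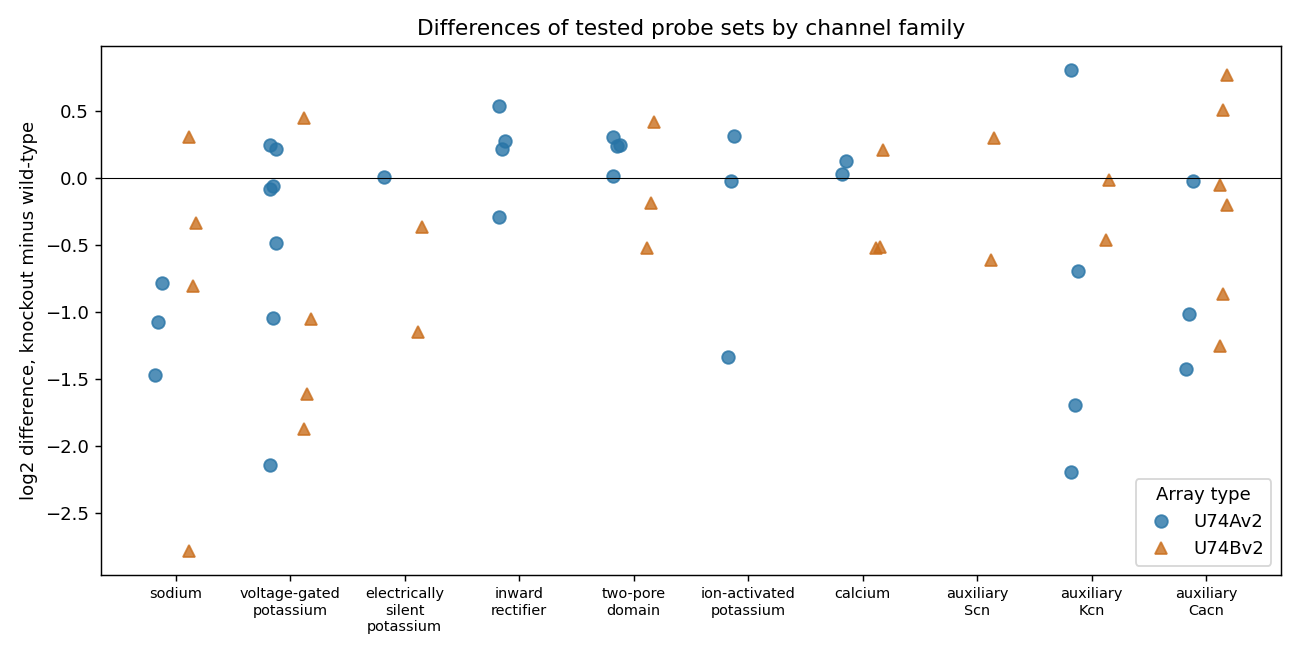
Log2 difference of knockout minus wild-type (vertical axis) for the tested probe sets of each channel family (horizontal axis), with circles for U74Av2 and triangles for U74Bv2. Sodium channels reach -2.78 (Scn7a), while the inward rectifiers lie between -0.29 and 0.54.

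Counted over the tested members, knockouts lay below the other genotypes more often than above. The filter used the mean over all arrays, most of which are not knockout. It can therefore favour members that are dim in knockouts alone over members that are bright there alone. Cacng2, higher in knockouts on both array types, was left out by it and is not counted here. On U74Av2 both knockout arrays lay below all heterozygote and wild-type arrays for 10 of 31 tested members, where 7.66% of all tested probe sets did so, and above them for 2 (Kcne1l and Kcnk2), where 8.53% did. On U74Bv2 they lay below for 8 of 26 members, where 13.4% of all did so, and above for 2 (Cacna1e and Kcnk5), where 14.9% did. At an unadjusted p under 0.05 against wild-type stood 10 of 31 members on U74Av2 (5.11% of all) and 11 of 26 on U74Bv2 (11.2% of all). The median difference of members against wild-type was -0.02 on U74Av2 and -0.41 on U74Bv2, against 0.02 for all tested probe sets on each. Split by class, the 24 pore-forming probe sets on U74Av2 had a median of 0.02 and the 7 auxiliary ones -1.01. On U74Bv2 the order was the other way, with -0.52 for 16 pore-forming and -0.13 for 10 auxiliary probe sets.

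Between heterozygotes and wild-type no channel was called. None of 31 members on U74Av2 and none of 26 on U74Bv2 was called, as was no probe set of any gene (0% of all). At an unadjusted p under 0.05 stood 0 of 31 members on U74Av2 (0.698% of all) and 1 of 26 on U74Bv2 (3.80% of all), where Kcnf1 differed by -1.44. For the probe sets called in knockout by the main fit, heterozygote minus wild-type was 0.24 ± 0.20 SE for Scn7a, 0.12 ± 0.29 and -0.13 ± 0.26 for Kcna1 on U74Bv2 and U74Av2, 0.04 ± 0.20 for Cacna2d2 and 0.15 ± 0.24 for Cacna2d1. Other genes called only with the block on U74Av2 had -0.48 ± 0.31 and -0.10 ± 0.28 (Kcnab2), -0.09 ± 0.28 (Kcnn1) and 0.32 ± 0.56 (Cacna2d3). Both comparisons with knockout share the knockout arrays.

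Of the 85 genes, 18 had probe sets on both array types, and 6 of these passed the filter on both by their brightest probe set. Scn7a, Scn9a, Kcna1 and Cacna2d1 had differences from wild-type of similar direction and at least 0.80 in size on both. Kcna2 (-0.06 on U74Av2 and -1.05 on U74Bv2) and Cacna1b (0.03 and -0.51) were close to 0 on U74Av2. With dim probe sets kept, the sign differed between array types for Cacna1b, Cacna1e, Kcnd3, Kcnj15, Kcnk3 and Kcnmb1. Cacng2, Kcnc1, Kcnj9, Kcnn4 and Scn3a were above wild-type on both, and the rest of the 18 below on both. The 63 members that were not tested had mean signals from 4.67 to 128 on U74Av2 and from 12.5 to 205 on U74Bv2. Among them were the muscle channel genes Cacna1s and Cacng1. Detection calls were not used here, so these transcripts cannot be called absent.

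Some genes that anchor or cluster these channels on axons were also lower. Their list was chosen with earlier results of these data known, so its counts and medians are not independent of them. Of 12 tested genes of the anchoring and clustering list on U74Bv2, 3 were called lower against wild-type and none higher (0.927% of all probe sets were called lower). By sign, 9 lay below wild-type and 3 above, among them Nfasc (0.48 ± 0.21 SE). The median was -0.35, against 0.02 for all tested probe sets. Against heterozygotes 2 fell (1.20% of all were called lower). Cntn2, an adhesion molecule that gathers Shaker-type channels beside the node of Ranvier, gave 3144 and 3364 in knockouts, 7941 and 6887 in heterozygotes, and 7104 in wild-type (-1.12 ± 0.22 SE, adjusted p = 0.0494). Cntnap1, which builds the junction between node and Shaker channels, gave 95.3 and 162 in knockouts, 679 and 485 in heterozygotes, and 679.8 in wild-type (-2.06 ± 0.34, adjusted p = 0.0292). A dim, untested Cntnap1 probe set on U74Av2 overlapped between genotypes. It gave 202 and 54.1 in knockouts, 71.6 and 52.5 in heterozygotes, and 194 and 208 in wild-type. Adam22, a catalytically inactive member of a protease family found in Shaker channel complexes, gave 992 and 1022 in knockouts, 1588 and 1476 in heterozygotes, and 2134 in wild-type (-1.05 ± 0.19, adjusted p = 0.0422). Adam22 did not pass against heterozygotes (adjusted p = 0.153). On U74Av2 none of 14 tested genes of this list was called, with 10 below wild-type, 4 above and a median of -0.18. Nrcam (0.46 ± 0.23) and Lgi4 (0.56 ± 0.23) were among those above. With the block 2 fell (1.17% of all were called lower), Fgf13, a cytosolic partner of sodium channels, and Dpp6, a partner of A-type potassium channels. Dpp6 gave 799 and 462 in knockouts, 1140.3 and 736 in heterozygotes, and 1836 and 943 in wild-type (-1.05 ± 0.40, adjusted p = 0.886, and 0.0179 with the block). Its knockouts overlapped the heterozygotes (adjusted p = 0.147 with the block). Fgf13 gave 461 and 463 in knockouts, 1137 and 1055 in heterozygotes, and 926 and 932 in wild-type (-0.94 ± 0.20, adjusted p = 0.244, and 0.0245 with the block).

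Other ion channels and the pumps for the same ions did not show calls. None of 17 tested genes on U74Av2 and none of 10 on U74Bv2 passed among HCN, TRP, acid-sensing, ATP-gated, chloride and intracellular channels, with medians of -0.07 and 0.08 against wild-type. Of the pumps and exchangers, none of 10 on U74Av2 and none of 5 on U74Bv2 passed, with medians of -0.05 and -0.36. Over all probe sets 0.255% were called against wild-type on U74Av2 and 1.40% on U74Bv2. At these shares lists this short would seldom hold a call, so its absence does not set them apart. The U74Bv2 median of the pumps was close to that of the anchoring list (-0.35). Fxyd7, a regulator of the sodium pump, fell with the block on U74Av2, with 729 and 720 in knockouts, 2343 and 2074 in heterozygotes, and 1637 and 1533 in wild-type (-1.08 ± 0.20 SE, adjusted p = 0.169, and 0.0106 with the block).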

How the data were processed

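Each deposited table gives the authors' intensity for every probe set, a linear MAS5 signal per the submitters' processing notes, with neither software version nor scaling target stated. The 2% trimmed mean lay between 500.26 and 500.29 on U74Av2 and between 497.61 and 498.38 on U74Bv2, so no scaling was added. Gene symbols are those of the platform annotation, checked against a RefSeq table of GRCm38.p6, which changed 0 of them. Coordinates and promoter sequences are RefSeq's, of that assembly.

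Values were log2(signal + 0.1 of the mean trimmed mean). Controls and probe sets with a mean log2 value at or below the 40th percentile were left out. For each array type a limma 3.58.1 model (R 4.3.3) of genotype took in every array, with eBayes and an intensity trend, and two-sided p-values were Benjamini-Hochberg adjusted. The lone U74Bv2 wild-type array was assumed to vary like the other genotypes. The fit was tested on simulated data. Alternatives changed the pseudocount, filter, trend or normalization, left out each array, or added the replicate number as a block. On U74Av2 the number 1 minus number 2 differences correlated between genotypes at 0.533 to 0.619. The labels do not say that a number marks a shared batch. The main fit therefore used genotype alone, and results with the number as a block are given beside it. Signals of 18S RNA there were 12803, 6745 and 5173 in number 1 arrays and 974, 518 and 511 in number 2 arrays of knockout, heterozygote and wild-type. On U74Bv2 the 1 such correlation was 0.103, and pairing was not assumed. Plots were drawn with matplotlib 3.10.9 in Python 3.11.15.

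Genes given with every array's value were called members, per array type the 10 largest differences from wild-type without overlap, and the 3 brightest members per prefix and subunit class. Kcna6, Kcnab1, Kcnd3, Kcnma1, Scn8a, Cacng2 and the dimmer Kcna2 and Cacna2d1 probe sets fell outside it and were added after their values were seen. Lists covered channel anchoring, other channels, pumps and cell type markers. Members and lists were chosen with earlier results of these data known. Precision is limited by how few arrays there are.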

Additional observations from a re-analysis of the deposited data

How the results depend on the processing

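Scn7a on U74Bv2 stayed lower in knockout than in wild-type and past the threshold in every alternative. Among channels on U74Av2, the count called against wild-type was 1, and it was 0 with no filter on dim probe sets, 5 with the replicate block and 0 without any 1 array. Against heterozygotes it was 0, and it was 1 (Kcna1) with the smaller pseudocount, with no intensity trend and with quantile normalization, and 6 with the replicate block. On U74Bv2 the count against wild-type was 3, and it was 1 (Scn7a) with no filter and with no trend, 7 with the replicate block (Cacng4 higher, and Kcna2, Kcnc4 and Cacna2d1 lower besides the 3), and between 3 and 7 with 1 array left out. The 7 came without heterozygote array 1 (Cacna2d1, Kcna2, Kcnc4 lower and Cacng2 higher besides the 3). Leaving out the wild-type array of U74Bv2 left no such comparison. Over all probe sets against wild-type, U74Av2 gave 19 calls, with 130 under the replicate block and 0 to 15 with 1 array left out, and U74Bv2 gave 104, with 21 under no filter, 56 under a filter at the 20th percentile, 40 under no trend, 216 under the replicate block and 115 to 178 with 1 array left out. Against heterozygotes, U74Av2 gave 14, with 129 under the block and 0 to 11 with 1 array left out, and U74Bv2 gave 127, with 54 under no filter, 81 under no trend and 317 under the block. Heterozygote against wild-type on U74Bv2 gave 0, with 7 under the block and 0 to 10 with 1 array left out. Small knockout minus wild-type differences changed sign in 7 genes. With 1 array left out they ran from -0.37 to 0.42 for Cacna1b, -0.13 to 0.40 for Cacna1c, -0.31 to 0.27 for Cacnb2 and -0.27 to 0.11 for Kcnh2 on U74Av2, and from -0.12 to 0.11 for Kcnip3 and -0.08 to 0.69 for the first Scn4b probe set on U74Bv2. Cacna1e was at -0.07 with the replicate block, and Kcnip3 at 0.03 with quantile normalization. The causes of these shifts were not tested.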
